A study of Mus musculus with 16 samples.

Results

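The p90 ribosomal S6 kinase (RSK) and mitogen- and stress-activated kinase (MSK) family of the mouse is encoded by 6 genes, Rps6ka1 to Rps6ka6, among the 24467 genes listed in each library. The family was taken whole by gene symbol, matched through Entrez identifiers, and all 6 genes were found. Rps6ka2 was chosen by its measured level, which was lower in the mScarlet-positive groups, so its values along mScarlet (DP and mScarlet cells against GFP and DN cells) are given as a description without a test. The other members entered with the family and were tested in every comparison, except Rps6ka6, which was too sparse for the fit.

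RNA sequencing was done on bulk sorted cells of orthotopic pancreatic tumours, grown in the pancreas of host mice from the KPC 7TCF-eGFP/Porcn-DMA line of mouse pancreatic ductal adenocarcinoma (PDAC). All groups came from this 1 line. Sorting by reporter colour gave the 4 groups DP (positive for GFP and mScarlet), mScarlet (mScarlet alone), GFP (GFP alone) and DN (negative for both), with 4 libraries from 4 mice in each. The name 7TCF-eGFP is that of a WNT reporter, green fluorescent protein placed under TCF sites, so GFP is read here as the WNT-responsive gate. The design also names a WNT-secreting population, but no label ties the mScarlet gate to it in words, and the sources used here give neither the make-up of Porcn-DMA nor the strain, age or treatment of the hosts.

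RSK and MSK proteins carry an N-terminal and a C-terminal kinase domain in a single chain. ERK, the last kinase of the RAS-RAF-MEK cascade, switches on the RSKs together with PDK1, whereas the MSKs are switched on by ERK or by p38. Active RSKs phosphorylate proteins of translation, survival and the cell cycle in the cytoplasm and nucleus, and MSKs phosphorylate CREB, ATF1 and histone H3 in the nucleus.

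Rps6ka1 encodes RSK1 (Entrez 20111, chromosome 4, 133847290 to 133887797, minus strand), Rps6ka2 encodes RSK3 (20112, chromosome 17, 7088971 to 7303315, plus strand) and Rps6ka3 encodes RSK2 (110651, chromosome X, 159255665 to 159368244, plus strand). Rps6ka4 encodes MSK2 (56613, chromosome 19, 6829084 to 6842145, minus strand), Rps6ka5 encodes MSK1 (73086, chromosome 12, 100548439 to 100725328, minus strand) and Rps6ka6 encodes RSK4 (67071, chromosome X, 111387837 to 111538097, minus strand). Coordinates are whole gene intervals of RefSeq in GRCm38.p6.

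RefSeq promoter windows of GRCm38.p6, each 250 bases before and 50 after an annotated start, were held for 5 of the 6 members, 8 windows in all. Rps6ka3 has no entry. The windows were searched on both strands for ATCAAAG, the letters TCF/LEF factors bind, for TGACGT, the start of the CRE that CREB binds, and for TGANTCA, the AP-1 site. The upstream 250 bases of Rps6ka2 are shown because its level carries the main pattern, and those of Rps6ka4 and Rps6ka5 because they hold the 2 matches, which stand in capitals. The Rps6ka2 window (chr17:7169865-7170114, plus strand) lies inside the gene interval, at the start that the table lists. The Rps6ka4 window is chr19:6840628-6840877 and the Rps6ka5 window chr12:100725121-100725370, both read on the minus strand.
Rps6ka2: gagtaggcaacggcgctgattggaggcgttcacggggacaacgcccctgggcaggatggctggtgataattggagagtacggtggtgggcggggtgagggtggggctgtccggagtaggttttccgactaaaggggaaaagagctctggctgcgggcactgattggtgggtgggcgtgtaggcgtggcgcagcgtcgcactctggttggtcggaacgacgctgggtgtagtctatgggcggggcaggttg
Rps6ka4: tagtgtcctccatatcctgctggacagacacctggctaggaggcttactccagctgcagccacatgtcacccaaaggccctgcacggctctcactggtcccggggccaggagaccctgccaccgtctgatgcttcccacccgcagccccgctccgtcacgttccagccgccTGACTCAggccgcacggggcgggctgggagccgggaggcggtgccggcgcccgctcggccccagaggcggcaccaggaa
Rps6ka5: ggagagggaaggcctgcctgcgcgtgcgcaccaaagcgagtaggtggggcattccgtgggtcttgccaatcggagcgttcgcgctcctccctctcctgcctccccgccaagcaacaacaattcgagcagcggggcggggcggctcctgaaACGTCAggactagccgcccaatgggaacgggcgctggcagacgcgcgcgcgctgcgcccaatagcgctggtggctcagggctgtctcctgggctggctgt
None of the 8 windows held ATCAAAG, which is in 3.73% of all 32817 windows of this length. Rps6ka4 held TGACTCA from base -79 of its start, and TGANTCA is in 7.81% of windows. Rps6ka5 held ACGTCA, the reverse complement of TGACGT, from base -100, and TGACGT is in 7.51% of windows. The 3 motifs share no position in these windows, and a match describes letters only.

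Library totals ran from 80647185 to 104273669 counts per library. Levels are given in CPM, counts scaled to a common library total after TMM scaling between libraries. The fit across genes tested 15963 genes, among them 5 members, and Rps6ka6 did not pass its low-count filter. A gene was called at an adjusted p under 0.05 of edgeR's quasi-likelihood test. The PDAC label was checked only for its epithelial part, with 8 keratin and surface markers that cannot tell PDAC from other epithelium. Their summed level ran from 15832 to 45082 CPM over the libraries. It was lowest in GFP library 1, where macrophage markers summed to 22281 CPM. In GFP library 4 it was 25381 CPM, beside 24481 CPM for acinar genes. Markers of other cells were present too and are given with the results they touch.

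Rps6ka2 was much lower in cells positive for mScarlet, whether or not they also carried GFP, and its mean was lowest in DP. Its level was 9.95, 2.43, 4.72 and 6.49 CPM in DP libraries 1 to 4 and 8.60, 6.99, 13.8 and 20.2 CPM in mScarlet libraries 1 to 4, against 82.8, 42.2, 32.0 and 32.6 CPM in GFP libraries and 209.6, 72.7, 51.5 and 99.6 CPM in DN libraries. Every DP and mScarlet library lay below every GFP and DN library, the nearest being 20.2 CPM in mScarlet library 4 and 32.0 CPM in GFP library 3. DN library 1 stood well above the others of its group. In bulk samples, fewer cells that express a gene and less RNA per cell cannot be told apart.

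Group means of Rps6ka2 were 5.90 ± 3.17 CPM in DP, 12.4 ± 5.96 CPM in mScarlet, 47.4 ± 24.1 CPM in GFP and 108 ± 70.3 CPM in DN (SD, n = 4). The log2 fold change was -3.13 (SE 0.53) for mScarlet against DN and -3.01 (SE 0.53) for DP against GFP. Averaged over both, mScarlet-positive against mScarlet-negative groups, it was -3.07 (SE 0.38). These values chose the gene and are not tested.

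**Figure D1:**
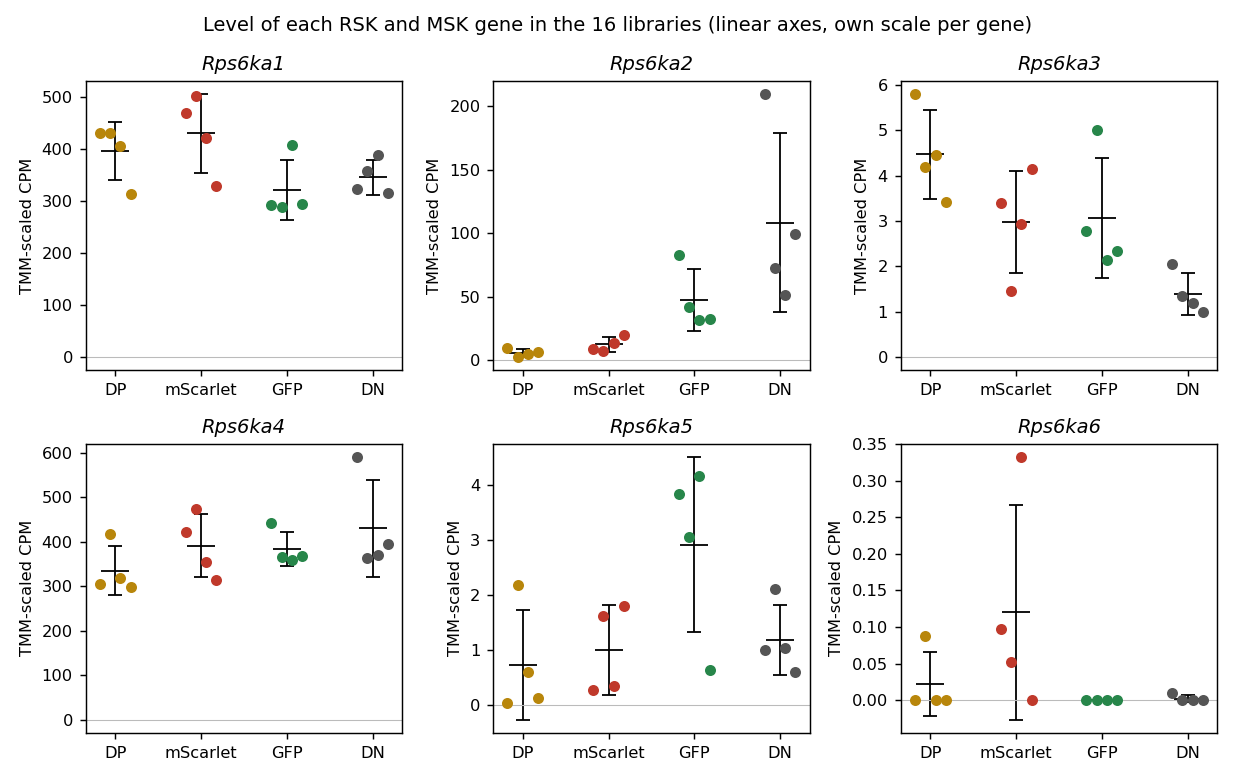
Level of the 6 family genes in TMM-scaled CPM (y axis, linear, own scale per gene) in DP, mScarlet, GFP and DN (x axis). Points are libraries, and bars are the mean ± SD of 4 libraries. Rps6ka2 stayed at or under 20.2 CPM in the 8 mScarlet-positive libraries and at or over 32.0 CPM in the other 8, while the ranges of Rps6ka1 and Rps6ka4 overlapped between all neighbouring groups.

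Along GFP (DP and GFP cells against mScarlet and DN cells), which the choice did not use, Rps6ka2 was also lower on average. Its log2 fold change was -1.19 for GFP against DN (SE 0.50, edgeR adjusted p = 0.460) and -1.07 for DP against mScarlet (SE 0.50, edgeR adjusted p = 1). Libraries of the same number pointed this way in 4 of 4 cases for GFP against DN and in 3 of 4 for DP against mScarlet, but the ranges overlapped in both. For GFP-positive against GFP-negative groups it was -1.13 (SE 0.35, edgeR unadjusted p = 0.0056, adjusted p = 0.283), which missed the threshold, while DESeq2 called it (adjusted p = 0.0414). Across 23 alternatives the adjusted p ran from 0.0414 to 0.523. The interaction, that is, the GFP difference within mScarlet-positive cells minus that within mScarlet-negative cells, was 0.12 (SE 0.70, 95% interval -1.36 to 1.60, edgeR adjusted p = 1). In the order of levels, DN and GFP overlapped, as did mScarlet and DP. The step between GFP and mScarlet was free of overlap. That step lies along mScarlet, by which the gene was chosen, and is a description only.

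Rps6ka1 was an abundant member in every group. It was at 432, 432, 407 and 314 CPM in DP libraries 1 to 4, 469, 502, 421 and 329 CPM in mScarlet, 292, 289.6, 408 and 295 CPM in GFP and 324, 357, 389 and 315 CPM in DN. The mScarlet-positive libraries were higher on average, but DP libraries 3 and 4 and mScarlet library 4 lay inside the range of the mScarlet-negative groups. The means were 396 ± 56.1 CPM in DP, 430 ± 75.4 CPM in mScarlet, 321 ± 58.0 CPM in GFP and 346 ± 33.6 CPM in DN (SD, n = 4), and groups next to each other in the order of means overlapped. For mScarlet-positive against mScarlet-negative groups the log2 fold change was 0.31 (SE 0.11, 95% interval 0.07 to 0.55), which missed the threshold (edgeR adjusted p = 0.102) and passed without GFP library 3 (edgeR adjusted p = 0.0451). It also passed once library numbers were fitted as a block (edgeR adjusted p = 0.0394). Libraries of the same number were higher in mScarlet than in DN in 4 of 4 cases and in DP than in GFP in 3 of 4. Over all 23 alternatives the adjusted p ran from 0.0394 to 0.320. Along GFP the difference was -0.11 (SE 0.11, 95% interval -0.35 to 0.13, edgeR adjusted p = 0.837).

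Rps6ka3, whose human counterpart is mutated in Coffin-Lowry syndrome, was low but read in all 16 libraries, with 98 to 535 counts. Its level was 5.80, 4.19, 4.47 and 3.43 CPM in DP libraries 1 to 4, 3.40, 1.46, 2.93 and 4.14 CPM in mScarlet, 2.77, 5.00, 2.15 and 2.34 CPM in GFP and 2.04, 1.35, 1.18 and 0.983 CPM in DN. DN was lowest and DP highest on average. The lowest GFP library, at 2.15 CPM, lay close to the highest DN library, at 2.04 CPM. The log2 fold change was 1.10 for mScarlet against DN (SE 0.42, edgeR adjusted p = 0.229) and 1.14 for GFP against DN (SE 0.42, edgeR adjusted p = 0.422). It was 0.54 for DP against GFP (SE 0.41, edgeR adjusted p = 0.567). For mScarlet-positive against mScarlet-negative groups it was 0.82 (SE 0.29, edgeR adjusted p = 0.0918), missing the threshold, and passed without GFP library 2 (edgeR adjusted p = 0.0472) and with DESeq2 (adjusted p = 0.0470), within a range of 0.0470 to 0.287 over 23 alternatives. For GFP-positive against GFP-negative groups it was 0.86 (SE 0.29, edgeR adjusted p = 0.325).

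Rps6ka6 was at or near 0. It had 0, 7, 0 and 0 counts in DP libraries 1 to 4, 9, 4, 30 and 0 counts in mScarlet, no count in any GFP library and 1, 0, 0 and 0 counts in DN. A count of 0 allows up to 3 counts, or 0.0313 to 0.0368 CPM in the GFP libraries, for counting error only. The mScarlet libraries summed to 43 counts, the DP libraries to 7 and the DN libraries to 1, and the gene was too sparse for the fit, so no fold is given.

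Of the MSK genes, Rps6ka4 was abundant throughout. It was at 306, 417, 320 and 299 CPM in DP libraries 1 to 4, 423, 473, 354 and 314 CPM in mScarlet, 441, 366, 359 and 369 CPM in GFP and 591, 363, 370.2 and 396 CPM in DN. The means were 335 ± 55.0 CPM in DP, 391 ± 70.9 CPM in mScarlet, 384 ± 38.3 CPM in GFP and 430 ± 108 CPM in DN (SD, n = 4), and groups next to each other in the order of means overlapped. Its log2 fold change was -0.17 for mScarlet-positive against mScarlet-negative groups (SE 0.13, 95% interval -0.43 to 0.10, edgeR adjusted p = 0.458) and -0.19 for GFP-positive against GFP-negative groups (SE 0.13, 95% interval -0.46 to 0.07, edgeR adjusted p = 0.690).

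Rps6ka5, the other MSK gene, was low and uneven among libraries of a group. It had 2, 174, 49 and 10 counts in DP libraries 1 to 4, 24, 124, 30 and 164 counts in mScarlet, 367, 254, 338 and 51 counts in GFP and 105, 194, 93 and 60 counts in DN. GFP libraries 1 to 3 were the highest of all, at 3.82, 3.04 and 4.15 CPM, and GFP library 4 lay at 0.622 CPM, among the DN libraries. The means were 0.727 ± 1.00 CPM in DP, 0.999 ± 0.82 CPM in mScarlet, 2.91 ± 1.59 CPM in GFP and 1.18 ± 0.64 CPM in DN (SD, n = 4). The log2 fold change was -2.0 for DP against GFP (SE 1.07, edgeR adjusted p = 0.383) and -1.12 for mScarlet-positive against mScarlet-negative groups (SE 0.74, edgeR adjusted p = 0.390), with 95% intervals that include 0.

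**Figure D2:**
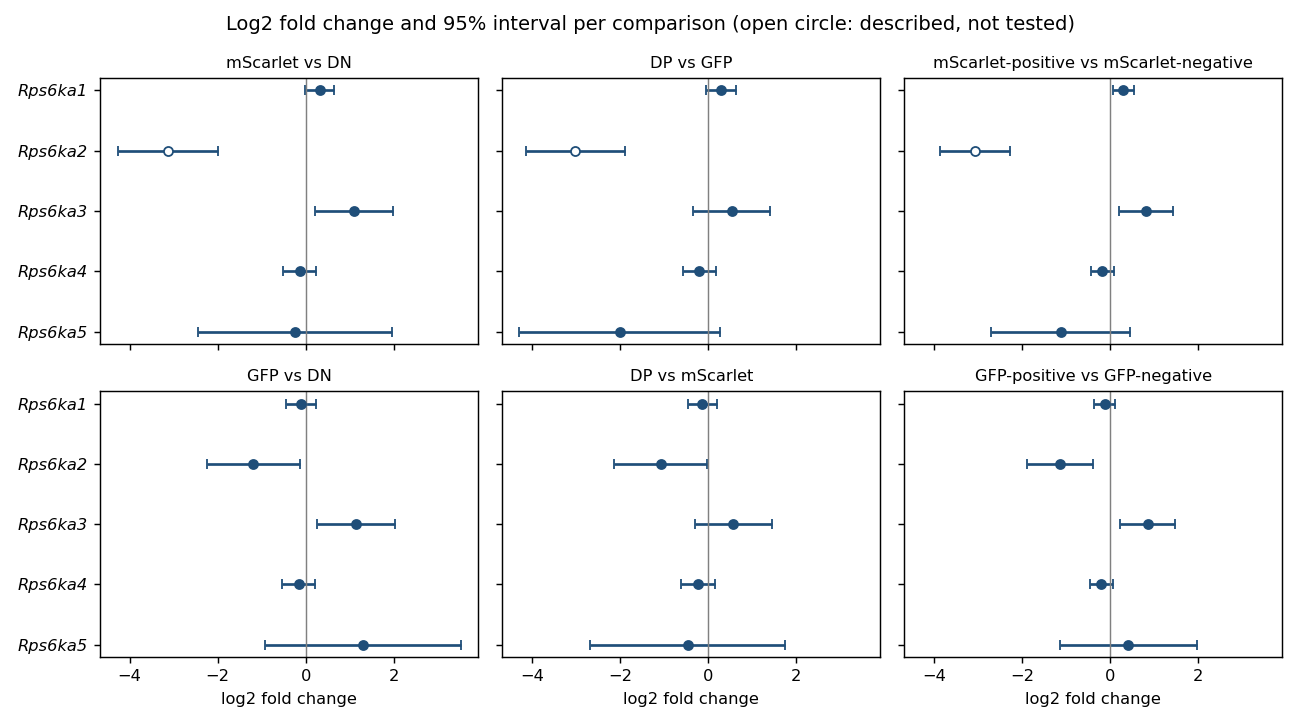
Log2 fold change (x axis) of the 5 fitted family genes (y axis) in 6 comparisons, with 95% intervals as bars. Open circles mark Rps6ka2 along mScarlet, where it is described and not tested. Rps6ka2 lies left of 0 in all panels and Rps6ka3 right of 0, and the Rps6ka5 intervals are the widest.

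None of the members tested was called in any of the 7 comparisons. Along mScarlet, 4 members were tested beside Rps6ka2. In mScarlet against DN 0.996% of all genes were called (159 of 15963), 0.407% higher and 0.589% lower. In DP against GFP 0.445% were called (71), 0.15% higher and 0.294% lower. In mScarlet-positive against mScarlet-negative groups 8.88% were called (1418), 3.46% higher and 5.43% lower. With single libraries left out these counts ran from 17 to 317, 0 to 323 and 859 to 1664. With so few members, 0 of 4 is near these shares. At an unadjusted edgeR p under 0.05 the members passing were 1, 0 and 2 in these comparisons, beside 14.3%, 16% and 24.1% of all genes. DESeq2 called 0, 0 and 1 of them (Rps6ka3), and limma voom called 0 in each. With the library number as a block, edgeR called 814 genes (5.1%) in mScarlet against DN and 791 (4.96%) in DP against GFP, with no member among them. In mScarlet-positive against mScarlet-negative groups the block called 2270 genes (14.2%) and 1 member, Rps6ka1.

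Along GFP, 5 members were tested. The share of all genes called by edgeR was 0% in GFP against DN, in DP against mScarlet, in GFP-positive against GFP-negative groups and in the interaction. The members passing at an unadjusted edgeR p under 0.05 were 2, 1, 2 and 0 of 5 in these comparisons, beside 10%, 3.03%, 9.93% and 3.35% of all genes. DESeq2 called 243, 50, 323 and 38 of the 15963 genes. Of these 1 was a member, Rps6ka2 in GFP-positive against GFP-negative groups. Limma voom called 1 gene in GFP against DN, none in the other 3 and no member. With the library number as a block, edgeR called 11 genes (0.0689%) in GFP against DN and 0 in DP against mScarlet, no member among them.

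Per length of exon, the family's transcripts were almost wholly Rps6ka1 and Rps6ka4. CPM per kb of exon, summed over the 6 genes, was split as follows. Rps6ka1 made up 49.9 ± 3.65% in DP, 47.9 ± 1.54% in mScarlet, 39.9 ± 5.88% in GFP and 38.4 ± 7.72% in DN (SD, n = 4). Rps6ka4 made up 49.3 ± 3.83% in DP, 50.8 ± 1.39% in mScarlet, 55.7 ± 4.51% in GFP and 53.9 ± 4.23% in DN. Rps6ka2 made up 0.524 ± 0.292% in DP, 1.02 ± 0.668% in mScarlet, 3.96 ± 1.78% in GFP and 7.60 ± 3.54% in DN. Measured per coding length, these shares of Rps6ka2 were 0.843% in DP, 1.65% in mScarlet, 6.35% in GFP and 11.9% in DN, since its exons hold much sequence outside the coding part. Rps6ka3, Rps6ka5 and Rps6ka6 each made up at most 0.345% of the family in any library.

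**Figure D3:**
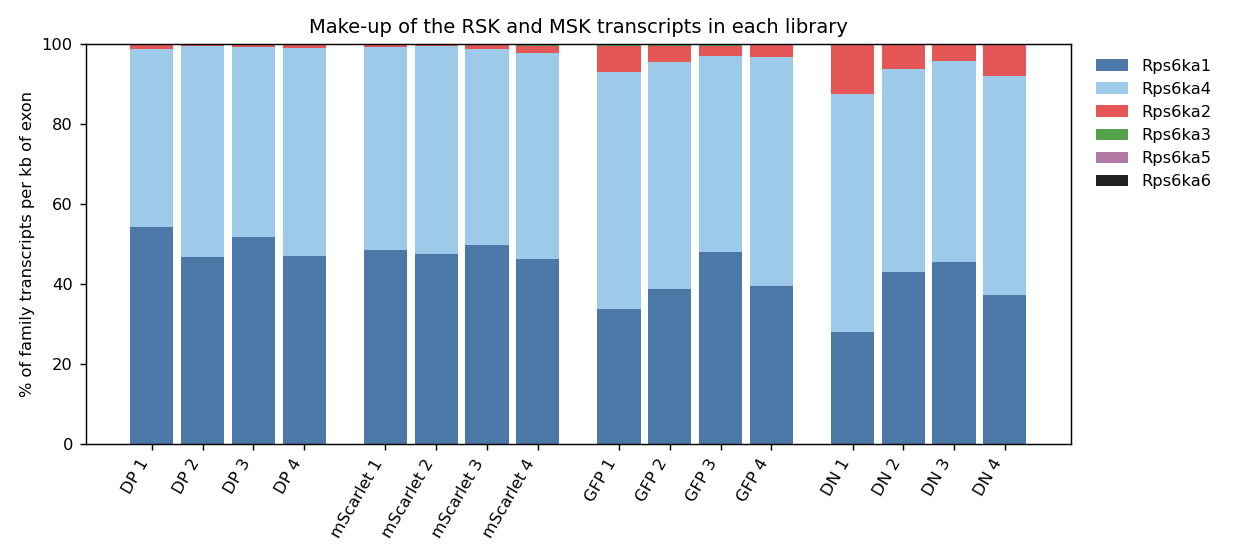
Share of each gene in the family's summed CPM per kb of exon (y axis, percent) in each of the 16 libraries (x axis, grouped as DP, mScarlet, GFP and DN). Rps6ka2 takes 12.3% in DN library 1 and 0.179% in DP library 2, its extremes, and Rps6ka3, Rps6ka5 and Rps6ka6 are too small to be seen.

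The genes whose level followed that of Rps6ka2 most closely over the 16 libraries were Plk1, Cdc20, Gm36117, Eno3, Stac, Tmem97, Dynap and Hmga1. Likeness was Pearson's r of log2(CPM + 1) among 8786 genes with a mean of at least 10 CPM in their highest group, and r ran from 0.947 for Hmga1 to 0.968 for Plk1. The 16 points share the 4 groups, so any gene that differs between groups in the same order can give a high r, and no p is given. Plk1, a mitotic kinase, averaged 17.0 CPM in DP, 21.2 CPM in mScarlet, 47.4 CPM in GFP and 54.2 CPM in DN. Cdc20, which activates the anaphase-promoting complex, averaged 33.8 CPM in DP, 41.5 CPM in mScarlet, 94.7 CPM in GFP and 119.5 CPM in DN. Cdc20 overlaps Elovl1 on the other strand in GENCODE M21, so reads of both could not be told apart. Eno3, the muscle-type enolase of glycolysis, averaged 7.19 CPM in DP, 11.2 CPM in mScarlet, 41.6 CPM in GFP and 84.1 CPM in DN. Dynap spanned a wider range, from 0.411 CPM in DP and 0.870 CPM in mScarlet up to 9.23 CPM in GFP and 25.2 CPM in DN. Hmga1, an architectural chromatin protein, was the most abundant, at 104.5 CPM in DP, 136 CPM in mScarlet, 309 CPM in GFP and 529.6 CPM in DN.

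**Figure D4:**
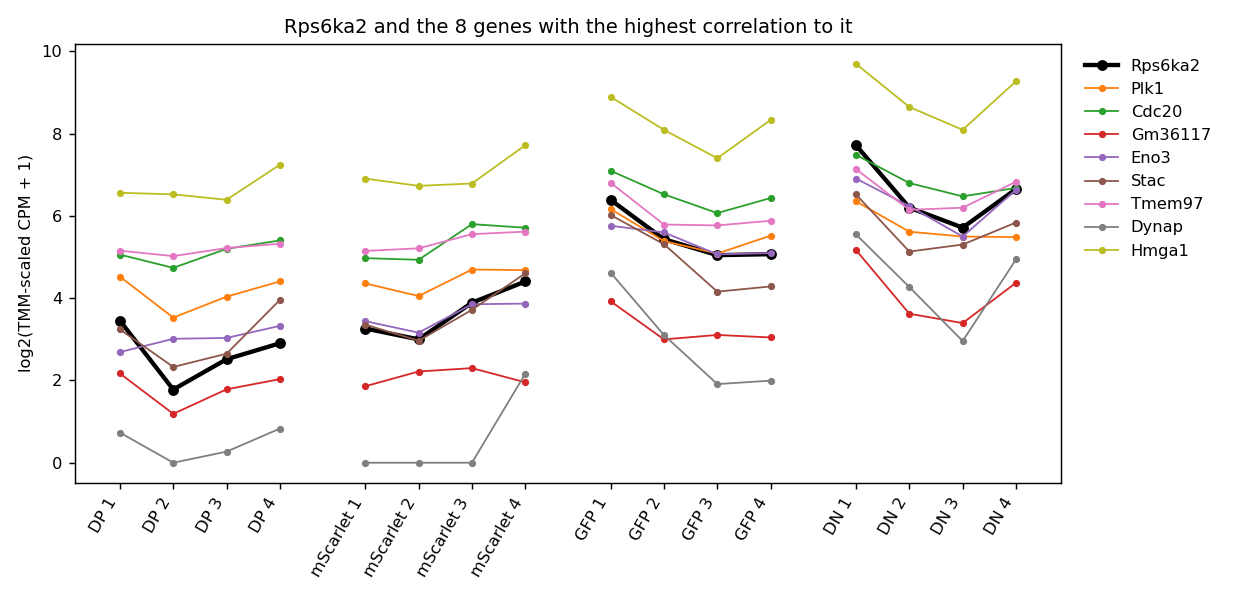
Level of Rps6ka2 (thick black line) and of the 8 genes with the highest correlation to it, as log2(TMM-scaled CPM + 1) (y axis), in each of the 16 libraries (x axis). Lines join the libraries of a group only to show which points belong to 1 gene. All 9 genes have their lowest means in DP and their highest in DN.

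For the other members the highest r was lower than for Rps6ka2. The highest r with Rps6ka1 was 0.943 (Arhgef18), then 0.935 (Ptprf) and 0.933 (Abca3). With Rps6ka4 it was 0.911 (Surf4), then 0.880 (Frmd8) and 0.868 (Rab1b). With the low genes it reached 0.842 for Rps6ka3 (Gripap1, then Herc4 and Tmem19) and 0.826 for Rps6ka5 (Hdgfl2, then Depdc5 and Ubtd1). Within the family, r was -0.62 between Rps6ka1 and Rps6ka2, -0.55 between Rps6ka2 and Rps6ka3 and 0.42 between Rps6ka2 and Rps6ka4. It lay between -0.43 and 0.31 for the other 7 pairs.

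The genes beside the members on the chromosomes were read next. No gene of either annotation used, RefSeq GRCm38.p6 and GENCODE M21, overlaps Rps6ka2. Its neighbours Gm1604b, which ends 1374 bases before it, and Tcp10a, 21341 bases after it, had 51 and 89 counts over all 16 libraries, so neither was read at a level near that of Rps6ka2. Gm12977 runs antisense within Rps6ka1 and is not among the listed genes. Since no source used here gives the strand setting of the counting, reads of both could not be told apart. Mir5046 lies within Rps6ka4 and had no count. Of the 8 neighbours of members that entered the fit (Arid1a, Hmgn2, Cnksr2, Eif1ax, Ccdc88b, Ttc7b, Dglucy and Hdx), edgeR called none along mScarlet or along GFP. The lowest edgeR adjusted p was 0.117 for Cnksr2, a neighbour of Rps6ka3 at 1211207 bases (log2 fold change 1.17, SE 0.45, mScarlet-positive against mScarlet-negative groups). No run of 50 identical bases was shared between the transcripts of any of the 15 member pairs.

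Genes upstream and downstream in the pathway were read against the 8.88% of all genes that edgeR called in mScarlet-positive against mScarlet-negative groups, and lists this small with 0 to 2 calls cannot be set apart from that share. Of 17 activators (RAS, RAF, MEK, ERK and p38 genes and Pdpk1), none was called along mScarlet, with a median log2 fold change of -0.04 beside -0.02 over all genes tested. Of 22 substrates and partners, none was called and the median was -0.08. Among 10 related AGC kinases 1 was called, and the median was -0.31. Akt2, a kinase of insulin signalling, fell to 77.3 ± 13.1 CPM in DP and 87.1 ± 13.5 CPM in mScarlet, against 119.2 ± 20.95 CPM in GFP and 104.1 ± 10.1 CPM in DN (n = 4). Its log2 fold change was -0.44 (SE 0.11, edgeR adjusted p = 0.0260). The call of Akt2 was lost without DN library 1 (edgeR adjusted p = 0.0528), mScarlet library 3 (0.0501), DP library 1 (0.0553) or GFP libraries 1 and 4 together (0.103). None of 11 immediate-early genes was called, and their median was -0.01. The 2 comparisons behind it differed in sign. The immediate-early median was 0.16 for mScarlet against DN, with 10 of 11 above 0. It was -0.17 for DP against GFP, with 9 of 11 below 0, and edgeR called none in either. In mScarlet-positive against mScarlet-negative groups, 1 activator, 4 substrates and no immediate-early gene passed at an unadjusted edgeR p under 0.05, beside 24.1% of all genes. DESeq2 called 0, 1 and 0 of them, beside 2321 of all genes, and limma voom called none, beside 1331.

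Of 12 output genes of ERK signalling, 1 rose and 1 fell along mScarlet. Phlda1 rose to 461 ± 124 CPM in DP and 506 ± 89.9 CPM in mScarlet, against 322 ± 80.3 CPM in GFP and 321 ± 28.4 CPM in DN. Its log2 fold change was 0.58 (SE 0.14, edgeR adjusted p = 0.0211), and the call was lost without DN library 1 (edgeR adjusted p = 0.0506), mScarlet library 2 (0.0523), mScarlet library 3 (0.0501) or GFP libraries 1 and 4 together (0.101). Etv4, an ETS transcription factor, fell to 18.2 ± 2.79 CPM in DP and 25.4 ± 7.27 CPM in mScarlet, against 46.8 ± 17.9 CPM in GFP and 59.5 ± 16.8 CPM in DN, a log2 fold change of -1.30 (SE 0.20, edgeR adjusted p = 0.00161) that passed in 23 of 23 alternatives. The list's median was -0.05. Along GFP, edgeR called no gene of these 5 lists, and the medians of 4 of them lay between -0.09 and 0.02. The immediate-early genes had a median of 0.31 for GFP-positive against GFP-negative groups, with 11 of 11 fold changes above 0, and 0.49 for GFP against DN, beside 0.01 and 0.02 over all genes tested. For DP against mScarlet their median was 0.13, with 7 of 11 above 0, beside -0.01 over all genes tested. In GFP-positive against GFP-negative groups 4 of these 11 passed at an unadjusted edgeR p under 0.05, beside 9.93% of all genes, and DESeq2 called 0. Macrophage markers had 10 of 10 fold changes above 0 in the same comparison, with a median of 2.74, of which edgeR called 0, 10 passed at an unadjusted edgeR p under 0.05 and DESeq2 called 5. Their part in the immediate-early values was not tested.

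**Figure D5:**
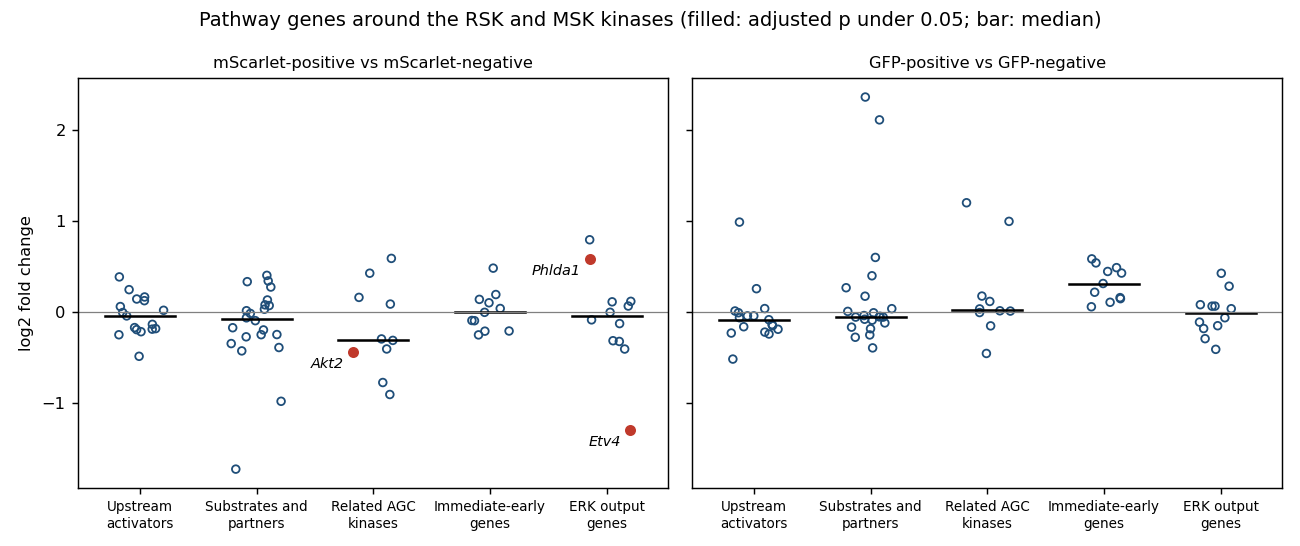
Log2 fold change (y axis) of genes in 5 pathway lists (x axis) for mScarlet-positive against mScarlet-negative groups (left) and GFP-positive against GFP-negative groups (right). Each circle is a gene, filled where the edgeR adjusted p was under 0.05, and the bar is the list's median. Akt2, Phlda1 and Etv4 are the 3 filled genes, all on the left, and the immediate-early median of 0.31 stands highest on the right.

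For mScarlet-positive against mScarlet-negative groups, markers of fibroblasts, acinar cells and macrophages had median log2 fold changes below 0, the direction of Rps6ka2. For GFP-positive against GFP-negative groups their medians were 1.96, 1.04 and 2.74, whereas Rps6ka2 was at -1.13. The acinar median was -6.68 in DP against GFP but 0.19 in mScarlet against DN, where 6 of 10 genes lay above 0. Of 10 fibroblast markers 5 fell with mScarlet and all 10 had negative fold changes, with a median of -3.79. Their summed level ran from 26.7 to 269 CPM in DP and from 17.8 to 88.5 CPM in mScarlet, against 608 to 9111 CPM in GFP and 135 to 1429 CPM in DN. Of 10 acinar enzyme genes 3 fell, and the sum ran from 44.8 to 172 CPM in DP and from 63.9 to 1296 CPM in mScarlet, against 340.1 to 24481 CPM in GFP and 82.3 to 837 CPM in DN. At an unadjusted edgeR p under 0.05 all 10 fibroblast and all 10 acinar genes passed. DESeq2 called 9 of each, and limma voom called 4 fibroblast and 0 acinar genes. The acinar calls (Cel, Ctrb1 and Prss2) were each lost in 14 to 17 of 23 alternatives. Macrophage markers, of which edgeR called 0 of 10 and DESeq2 called 1, summed to 1013 to 5271 CPM in DP and 127 to 857 CPM in mScarlet, against 342 to 22281 CPM in GFP and 135 to 2686 CPM in DN. No marker of these lists was at 0 in all libraries. Without GFP libraries 1 and 4, which held the highest macrophage sum and the highest fibroblast and acinar sums, the log2 fold change of Rps6ka2 was -2.90 for mScarlet-positive against mScarlet-negative groups. The part of these cells in the members' values was not tested. Of 8 epithelial markers 6 had positive and 2 had negative fold changes with mScarlet, with a median of 0.30. EdgeR called 2 of them, beside 8.88% of all genes. Muc1 rose by 1.00 (SE 0.29, edgeR adjusted p = 0.0413) and Cdh1 by 0.75 (SE 0.22, edgeR adjusted p = 0.0459) on the log2 scale. Both lie close to the threshold, and the adjusted p reached 0.0953 for Muc1 and 0.113 for Cdh1 without GFP libraries 1 and 4, and 0.0857 for Muc1 and 0.0928 for Cdh1 with a single library left out.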

How the data were processed

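For each of the 16 libraries the authors deposited raw read counts, whole numbers listed by Entrez identifier and not normalized. RNA was purified on micro-scale columns and made into PCR-amplified full-length cDNA, per the labels' protocols, and reads were paired, 100 bases each. The submitters' processing notes name STAR, DESeq2 1.24.0 and GRCm38 (mm10), without the role of each. The sources used here do not give the read counter, its annotation or its strand setting.

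Of 24467 identifiers, 24437 matched a RefSeq symbol, and the other 30, with 0.723% to 1.931% of counts, stayed in the library totals. No replicate pair agreed within sampling noise. The main test was edgeR 4.0.16 in R 4.3.3 (quasi-likelihood test, all 16 libraries, group as the only term, expression filter by group, TMM scaling, Benjamini-Hochberg adjustment over 15963 genes), checked on simulated counts. Alternatives were RLE size factors, DESeq2 1.42.0, limma voom 3.58.1, no filter, the library number as a block, only the groups compared, each library left out, and GFP libraries 1 and 4 left out. Robust edgeR estimation was added after the counts of calls were seen. The floor of 3 counts covers counting error only, since reads carry no molecular identifiers. Intervals of fold changes come from the edgeR fit and also include the spread between libraries of a group. No label or header says whether PCR duplicates were removed.

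Same-numbered libraries deviated together in all 16 pairs of the 4 comparisons of 2 groups (deviations from group means, each correlation over 0.1). Libraries of the same number were therefore set side by side there. The main edgeR test has group as its only term and leaves this pairing out. The library number was fitted as a block only as an alternative. No label says what a number marks. Over all 24 pairs of groups and numbers the correlation ran from 0.092 to 0.608, and 23 were over 0.1.

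The members, gene lists and tests were chosen with earlier results of these data known. Genes named are the 6 members, up to 4 called genes per list, the 8 genes most like Rps6ka2 and the 3 most like each other fitted member (of which some are named without values), and neighbouring genes. Lists of endothelial, lymphocyte and erythroid markers had no called gene along mScarlet, with median log2 fold changes of -0.79, -0.98 and -1.64.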

Additional observations from a re-analysis of the deposited data

Results flagged for a closer look

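Of 24 groups of 4 libraries examined, 6 genes in 4 groups, 5 held a library far from the rest of its group by Dixon's criterion (the gap to the next library over the group's range). Chance alone flags about 1 in 20 groups. Rps6ka1 stood at 408 CPM in GFP library 3, and the next GFP library had 295 CPM. Rps6ka4 stood at 591 CPM in DN library 1, with 396 CPM next, and at 441 CPM in GFP library 1, with 369 CPM next. Rps6ka6 was read in DP library 2 (0.0877 CPM) and DN library 1 (0.00946 CPM) alone among the libraries of those groups, which are too few counts to compare. No member's interaction passed the test among 5 tested (edgeR).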

How the results depend on the processing

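The log2 fold change of Rps6ka2 along mScarlet ran from -3.48 to -2.60 for mScarlet against DN, -3.38 to -2.60 for DP against GFP and -3.26 to -2.82 for mScarlet-positive against mScarlet-negative groups, over 24, 24 and 23 alternatives.

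Along mScarlet, 4 alternatives each called 1 member other than Rps6ka2 in mScarlet-positive against mScarlet-negative groups, where edgeR had called 0. Rps6ka3 passed with DESeq2 (log2 fold change 0.79, adjusted p = 0.0470) and without GFP library 2 (0.99), and Rps6ka1 passed without GFP library 3 (0.37), so that leaving out a library gave 0 to 1 calls. Rps6ka1 also passed with the replicate block (0.30, edgeR adjusted p = 0.0394). The main edgeR test leaves the library numbers out here, as in every comparison, and the call of Rps6ka1 changed once they were fitted. Of the 24 correlations between same-numbered libraries 23 were over 0.1, and that of GFP with mScarlet library 4 was 0.092. In 22 of 24 cases a library correlated best with the library of its own number in the other group. Along GFP, DESeq2 called 1 member, Rps6ka2 (-1.13). The block changed no other call of a member.

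Counts of called genes moved most. In mScarlet against DN (159 genes) they were 794 with DESeq2, 814 with the replicate block, 544 without GFP libraries 1 and 4 and 320 in a fit of these groups alone, and 17 to 317 with a library left out. They were 17, 86 and 52 without DN libraries 1, 2 and 4, 18, 19 and 25 without mScarlet libraries 1, 2 and 3, and 317, 272 and 298 without GFP library 1, GFP library 4 and mScarlet library 4. In DP against GFP (71) they were 107 with RLE size factors, 994 with DESeq2, 791 with the block, 1 without GFP libraries 1 and 4 and 0 in a fit of these groups alone, and 0 to 323 with a library left out. They were 1, 1 and 0 without DP libraries 1, 2 and 3, 36, 11 and 12 without mScarlet libraries 1, 2 and 3, 1, 189, 323 and 1 without GFP libraries 1 to 4, and 12, 23 and 9 without DN libraries 2, 3 and 4. In mScarlet-positive against mScarlet-negative groups (1418) they were 2321 with DESeq2, 2270 with the block and 679 without GFP libraries 1 and 4, and 859 to 1664 with a library left out. They were 931, 935 and 898 without DP libraries 1, 2 and 3, 859 without mScarlet library 2 and 881 without DN library 1. Along GFP, where edgeR called 0 genes, DESeq2 called 243 in GFP against DN, 50 in DP against mScarlet, 323 in GFP-positive against GFP-negative groups and 38 in the interaction. In GFP against DN limma voom called 1 and the block 11, and leaving out a library gave 0 to 2. In DP against mScarlet leaving out a library gave 0 to 1. In GFP-positive against GFP-negative groups the count was 6 with no filter, 77 with the block and 2 without GFP libraries 1 and 4, and 0 to 8 with a library left out. Robust edgeR estimation gave 188, 90 and 1393 genes in the 3 comparisons along mScarlet and 0 in the others. The causes were not tested.

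Signs turned only in uncalled values. Rps6ka5 in GFP-positive against GFP-negative groups turned to -0.17 with limma voom and ran from -0.38 to 0.64 with a library left out. With a library left out, Rps6ka4 ran from -0.26 to 0.040 in mScarlet against DN and from -0.25 to 0.037 in GFP against DN, positive only without DN library 1, and Rps6ka5 in mScarlet against DN ran from -0.70 to 0.17. The interaction of Rps6ka1 turned to 0.00485 with limma voom and 0.016 with no filter (-0.12 to 0.15 with a library left out), that of Rps6ka2 to -0.00843 with limma voom and -0.15 with the replicate block (-0.43 to 0.55), and that of Rps6ka4 to 0.051 without GFP libraries 1 and 4 (-0.26 to 0.075). The shares of Rps6ka2 in the family per coding length (0.843% in DP, 6.35% in GFP, 11.9% in DN) were above those per exon length.

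Depth limits Rps6ka6, whose libraries held as few as 0 counts. Rps6ka5 held as few as 2 counts and also varied widely between libraries of a group, from 2 to 174 counts in DP. Changes of the low members that the wide intervals include could not be seen at 4 libraries a group.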

Other observations

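The ratio of Rps6ka1 to Rps6ka4 counts, singled out after the values were seen and therefore not tested, was 1.41, 1.04, 1.27 and 1.05 in DP libraries 1 to 4 and 1.11, 1.06, 1.19 and 1.05 in mScarlet libraries, against 0.662, 0.791, 1.14 and 0.800 in GFP libraries and 0.548, 0.984, 1.05 and 0.796 in DN libraries. Rps6ka1 had more counts than Rps6ka4 in all 8 mScarlet-positive libraries and in 2 of the 8 mScarlet-negative ones, GFP library 3 and DN library 3. Counts are not corrected for gene length. Per kb of exon the ratio was 1.21, 0.888, 1.09 and 0.900 in DP libraries 1 to 4. In mScarlet libraries it was 0.951, 0.910, 1.02 and 0.899. It was 0.568, 0.678, 0.974 and 0.686 in GFP and 0.470, 0.843, 0.900 and 0.682 in DN.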
